A study of Mus musculus with 2 samples.

Results

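Leukocytes without C1q were the cells of the mouse dorsal root ganglion (DRG) that carried genes shared by blood-derived cells and almost none of the complement C1q genes that mark resident macrophages. They were chosen from their own counts of unique molecular identifiers (UMIs, each standing for 1 captured RNA molecule). A barcode was taken as a cell when it held over 300 genes, at least 500 UMIs and up to 22% mitochondrial UMIs. It was a leukocyte without C1q when Ptprc, Cd52, Tyrobp and Fcer1g together gave at least 3 UMIs and at least 10 per 10,000 UMIs, when C1qa, C1qb and C1qc together gave at most 1 UMI, when Fabp7 of satellite glial cells was under 30 per 10,000, and when Ncmap, Scn7a, Col1a1, Rgs5 and Flt1, of other cells of the ganglion, gave at most 1 UMI each. This left 86 of 17952 cells, 41 of 8892 in replicate 1 and 45 of 9060 in replicate 2. Both libraries came from L4 and L5 DRGs of uninjured female C57BL/6 mice at 3 months of age, with no transgene and no treatment, so that there was 1 condition with n = 2 samples. The ganglia were digested with papain and collagenase, live cells were sorted, and RNA was captured by its 3′ end in droplets. The number of animals in each replicate is not given in the sources used here, and perfusion is not described for them. Cells of the vessels, cells within the ganglion and cells of any other tissue taken with it cannot be told apart.

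Most immune cells of an uninjured ganglion are macrophages, which take up debris and make C1q. Other leukocytes pass through or stay in small numbers. Dendritic cells take up antigen and show its fragments to T cells on MHC class II. Type 1 dendritic cells (DC1) need the factors Irf8 and Batf3 and are known for presenting antigen to CD8 T cells, and type 2 dendritic cells (DC2) use Irf4 and mainly address CD4 T cells. Monocytes are the blood precursors of many macrophages, neutrophils carry granules of antimicrobial proteins, B cells make antibody, T cells read antigen through a receptor linked to CD3, and mast cells store proteases and histamine.

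The libraries held 119101743 UMIs in replicate 1 and 128668771 in replicate 2, with 9530 and 9821 barcodes of at least 500 UMIs. In replicate 1, 257 cells passed the leukocyte genes, 31 of them were removed for a gene of another cell type, and 226 remained, of which 185 were C1q-positive. In replicate 2, 225 passed, 34 were removed and 191 remained, of which 146 were C1q-positive. Of the removed cells, 6 in each replicate had no more than 1 C1q UMI. The leukocytes without C1q were 0.461% of cells in replicate 1 (exact Clopper-Pearson 95% interval 0.331 to 0.625) and 0.497% in replicate 2 (0.363 to 0.664). Among the remaining leukocytes they were 18.1% (13.3 to 23.8) and 23.6% (17.7 to 30.2), so that the intervals of the replicates overlapped. These intervals cover counting error only.

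The C1q count separated the leukocytes with few cells near the limit. No C1q UMI was found in 38 leukocytes without C1q of replicate 1 and in 43 of replicate 2, and 1 UMI was found in the other 3 and 2. The 4 nearest cells on the other side held 7, 8, 17 and 19 C1q UMIs in replicate 1 and 3, 7, 9 and 17 in replicate 2. The median of the C1q-positive leukocytes was 118 and 117.5 UMIs. On the leukocyte genes, the 2 lowest cells had 12.7 and 13.8 UMIs per 10,000 in replicate 1 and 24.6 and 26.0 in replicate 2, against medians of 46.6 and 44.4, and 0 cells with at least 3 UMIs lay under 10 per 10,000. The highest Fabp7 value was 18.5 per 10,000 in replicate 1 and 5.63 in replicate 2, and the highest mitochondrial share was 16.0% and 14.3%. A UMI of an excluding gene other than Fabp7 was found in 4 cells of replicate 1 and 16 of replicate 2. All these values were used to choose the cells and are given as a description.

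**Figure D1:**
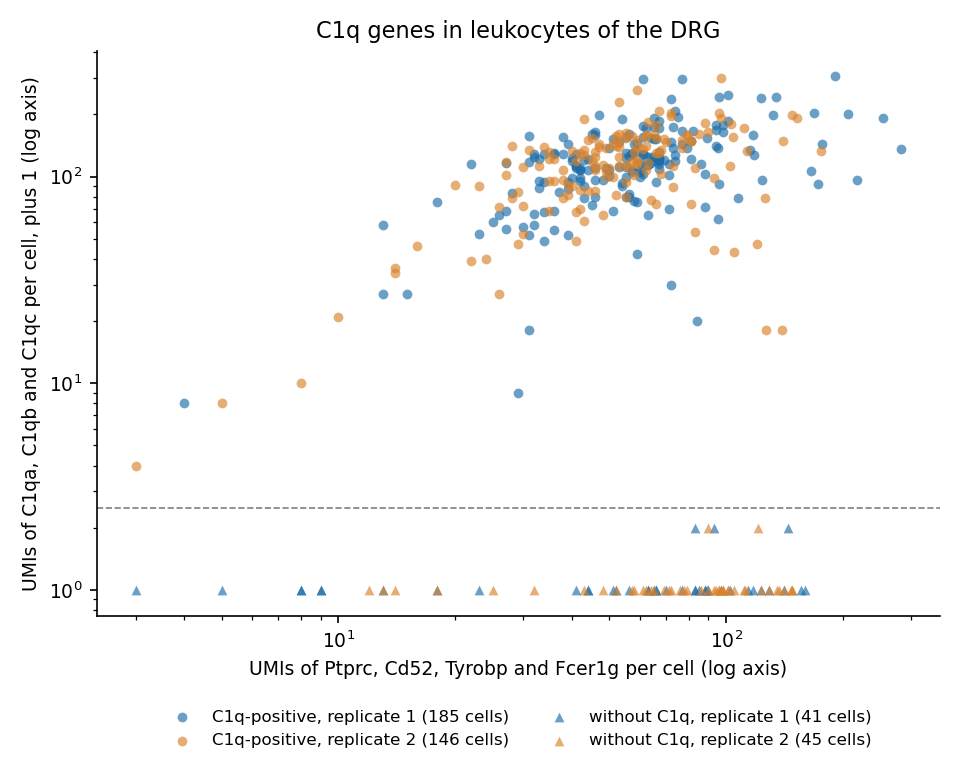
UMIs of Ptprc, Cd52, Tyrobp and Fcer1g (x, log axis) and UMIs of C1qa, C1qb and C1qc plus 1 (y, log axis) in each leukocyte of both replicates; the dashed line is the limit of 1 UMI. The 86 leukocytes without C1q sit at 0 or 1 C1q UMI, and the medians of the C1q-positive leukocytes are 118 and 117.5.

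The cells held more UMIs per barcode than C1q-positive leukocytes. The median leukocyte without C1q held 18634 UMIs and 3902 genes in replicate 1 and 19644 UMIs and 3981 genes in replicate 2, against 10718 and 10596 UMIs in C1q-positive leukocytes and 14046 and 14517 in glia chosen by Fabp7 (3958 and 4129 cells). The range over single cells was 1438 to 36640 UMIs in replicate 1 and 1776 to 38949 in replicate 2. Shares of cells with a UMI are therefore also given after each cell was thinned to 1000 UMIs. Summed over cells, the leukocytes without C1q gave 688815 and 830022 UMIs, so that 3 counts, the limit that a count of 0 allows, stood for 4.36 and 3.61 UMIs per 1000000 UMIs (CPM). For a gene found in 0 cells, the same limit of 3 counts allows a share of cells with a UMI of up to 7.32% in replicate 1 and 6.67% in replicate 2. The libraries shared 138 cell barcodes, none of them a leukocyte without C1q in both, and 1 leukocyte without C1q carried a barcode that was a cell in the other library.

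RNA of other cell types was limited by the choice itself, through Fabp7, Ncmap, Scn7a, Col1a1, Rgs5 and Flt1, so that the sums below are a description. The summed satellite glial markers (9 genes) were at 1434 and 1660 CPM, against 53322 and 51906 CPM in nearly empty droplets (barcodes ranked 45000 to 90000 by UMIs). Schwann cell markers (10 genes) were at 315 and 416 CPM, fibroblast markers at 199 and 282, neuron markers at 62.4 and 57.8, endothelial markers at 24.7 and 33.7, and mural markers at 10.2 and 27.7. Red blood cell markers were at 11.6 and 6.02 CPM, with Alas2 and Slc4a1 at 0, and platelet markers at 1.45 and 2.41 CPM, with Ppbp, Gp9, Gp1bb and Nrgn at 0. From 12 glial genes, empty-droplet RNA was estimated as 3.94% of UMIs in replicate 1 and 5.28% in replicate 2, and as 2.71% and 4.63% without the cell highest in these genes in each replicate. The estimate is too high for Apoe, whose level in the cells was 2.68% and 3.11% of that in empty droplets. In 8 of the 86 cells the 12 glial genes reached 10 per 10,000, the highest being 37.5 in 1 neutrophil-like cell.

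The genes given as leukocyte markers were counted in the cells. Ptprc, the tyrosine phosphatase CD45 of all blood cells other than red cells, had a UMI in 82 of 86 cells, Cd52 in 83, and the signalling adaptors Tyrobp and Fcer1g in 78 each. These 4 genes were used by the choice, so that their counts do not check the label. Of the markers outside it, Lyz2, the lysozyme of myeloid cells, was found in 73 cells, and Cd74, the chaperone of MHC class II, in 63, so that neither was general.

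Genes of the lymphocyte receptors were rare. Cd3e (chr9:44998740-45009627, GRCm38), a chain of the CD3 complex, had a UMI in 1 cell of replicate 1 (2.44%) and 1 of replicate 2 (2.22%), or 2.33% ± 0.153 (SD, n = 2). Cd79a (chr7:24897381-24902197), a signalling chain of the B-cell receptor, had one in 2 cells of each replicate (4.88% and 4.44%), or 4.66% ± 0.307. Both Cd79a cells of replicate 1 were lost at a stricter limit on the leukocyte genes (6 UMIs and 20 per 10,000), where Cd79a was in 0% and 4.44% of cells. Neither gene was found in a C1q-positive leukocyte. In glia, which should lack both, Cd3e was at 0 of 8087 cells and Cd79a at 0.198%.

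S100a8, Lyz2 and H2-Aa were more frequent. S100a8 (chr3:90668978-90670035), a subunit of the antimicrobial protein calprotectin, had a UMI in 8 cells of replicate 1 (19.5%, exact 95% interval 8.82 to 34.9) and 5 of replicate 2 (11.1%, 3.71 to 24.1), against 1.74% and 0.557% of glia. Lyz2 (chr10:117277331-117282321) had one in 33 cells (80.5%, 65.1 to 91.2) and 40 cells (88.9%, 75.9 to 96.3), against 6.39% and 6.83% of glia. H2-Aa (chr17:34282744-34287823), the alpha chain of the MHC class II molecule I-A, had one in 26 cells (63.4%, 46.9 to 77.9) and 35 cells (77.8%, 62.9 to 88.8), against 4.45% and 7.34% of glia. For each of the 3 genes the intervals of the replicates overlapped and lay above the glial share.

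Thinning lowered most of these shares. At 1000 UMIs a cell, Lyz2 was found in 70.7% and 55.6% of cells, H2-Aa in 56.1% and 71.1%, S100a8 in 12.2% and 6.67%, Cd79a in 4.88% and 2.22%, and Cd3e in 2.44% and 2.22%, while no glial share of these genes passed 0.914%. The summed levels were 10.2 and 6.02 CPM for Cd3e, 74.0 and 72.3 for Cd79a, 11154 and 3311 for S100a8, 2176 and 2734 for Lyz2, and 5700 and 6428 for H2-Aa. As a mean over cells, Cd3e was at 16.7 CPM, since its cells were shallower than most. The replicates were close for Cd79a and stood apart for S100a8.

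The 5 genes divided the cells. None of them was found in 4 cells, 1 of them in 15, 2 in 63 and 3 in 4. Lyz2 and H2-Aa were together in 53 cells, S100a8 and Lyz2 in 13, and Cd79a and H2-Aa in 4, and neither Cd3e cell held Cd79a, S100a8 or Lyz2. H2-Aa had no UMI in 25 cells, 1 to 19 UMIs in 8 and at least 20 in 53, and those 53 cells held 99.7% of its UMIs.

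Each cell was then named by the marker list of which it held most genes at 2 or more UMIs, with at least 3 markers and no tie, out of 15 lists of blood-cell types. Some genes stand in 2 lists, among them Flt3 and Zbtb46 for both dendritic types. By this rule 29 cells were DC2-like (12 in replicate 1, 29.3%, and 17 in replicate 2, 37.8%) and 21 were DC1-like (9, 21.95%, and 12, 26.7%), together 58.1% of the 86. A further 11 were monocyte-like (5, 12.2%, and 6, 13.3%), 7 neutrophil-like (4, 9.76%, and 3, 6.67%), 4 B-cell-like, 3 mast-cell-like, 3 non-classical-monocyte-like, 2 T-cell-like, 1 migratory-DC-like and 1 plasmacytoid-DC-like. The lists of NK cells and innate lymphoid cells, plasma cells, basophils, eosinophils and macrophages took 0 cells. For macrophages this was partly fixed by the choice, as its limit on C1qa, C1qb and C1qc kept 3 of the 18 markers from counting. The lists ran from 7 genes (eosinophils) to 20 (T cells), and the count of markers was not adjusted for this, so that short lists were at a disadvantage. Of the 82 named cells, 4, all dendritic-like, led the next list by only 1 or 2 markers. No class was given to 4 cells, all of replicate 1 and all shallow, at 1438 to 2491 UMIs. The marker genes were used for the names, so that their values below describe the classes and support nothing.

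**Figure D2:**
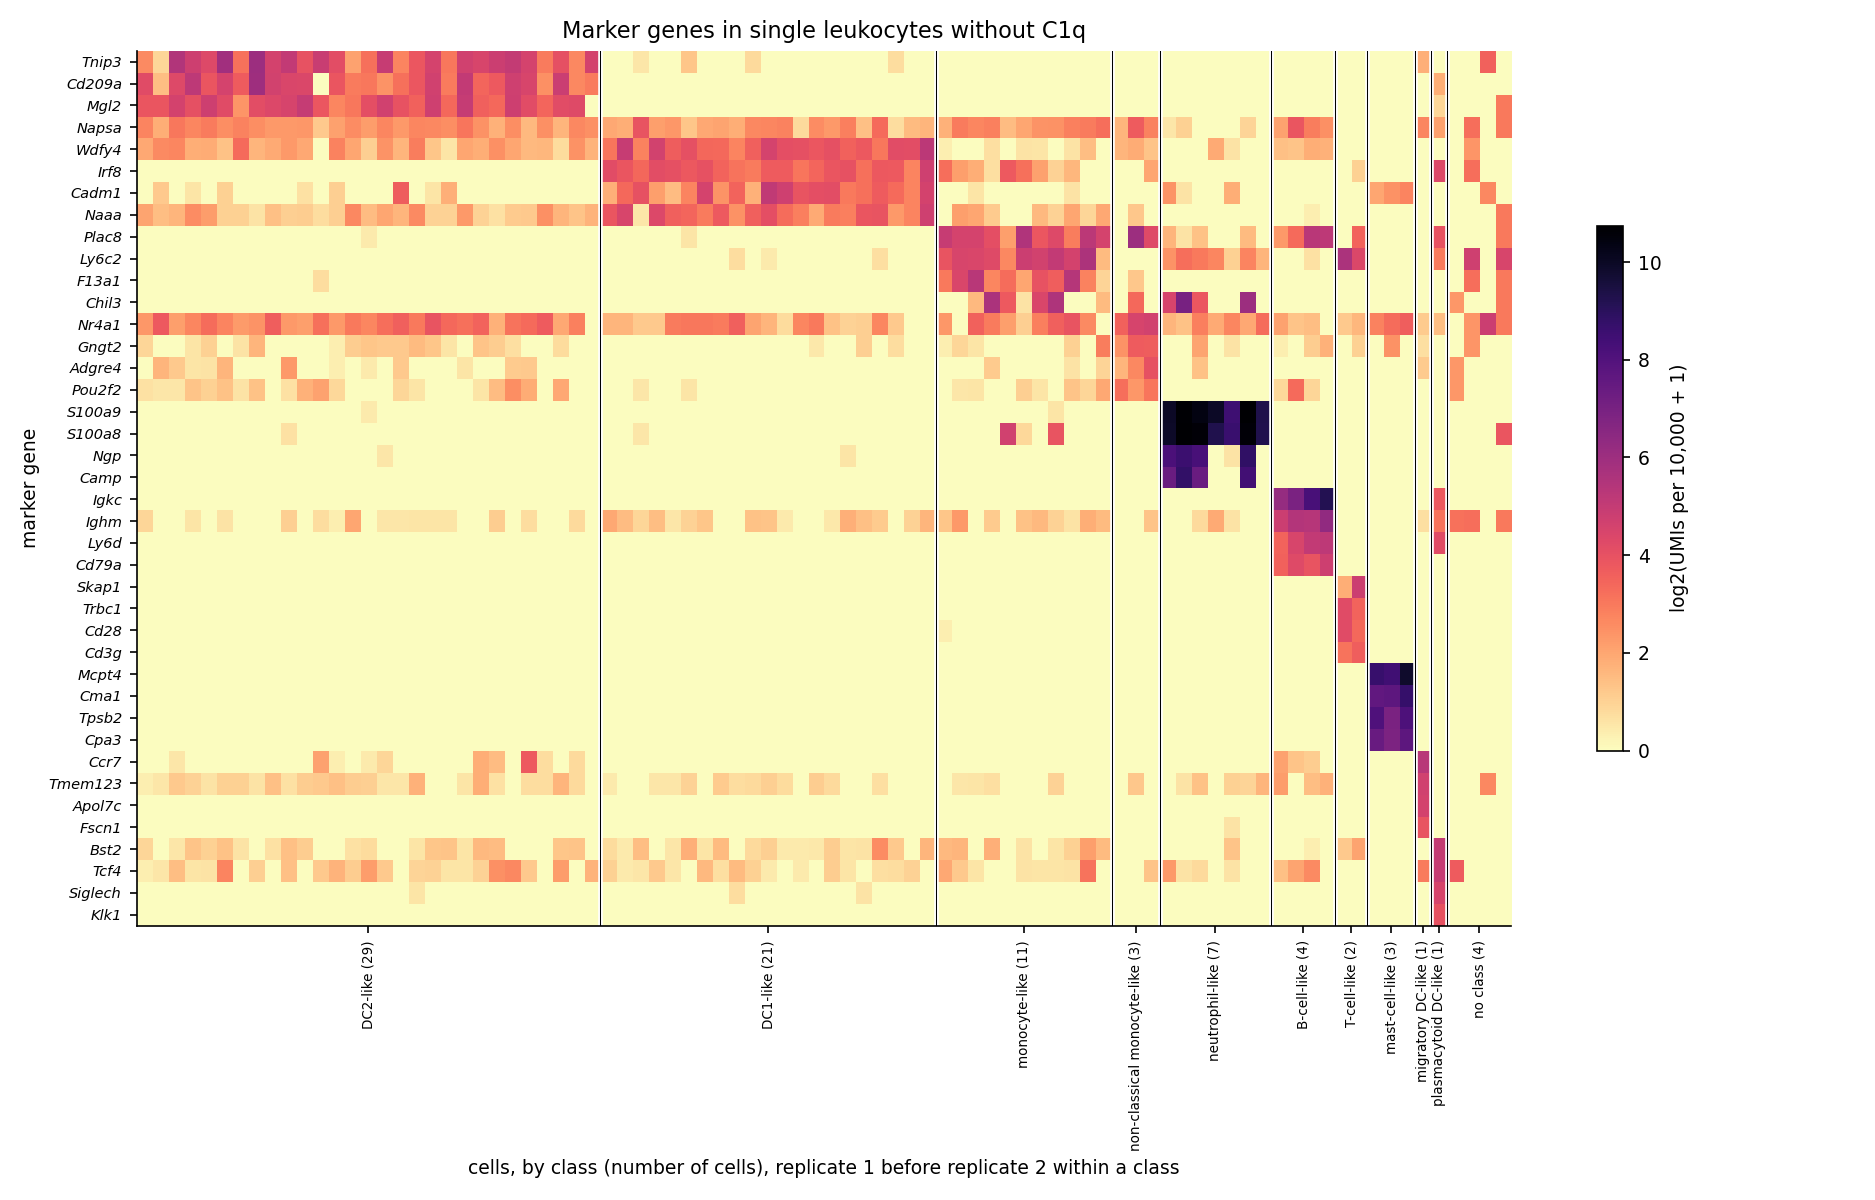
Levels of marker genes (vertical axis) in each of the 86 leukocytes without C1q (horizontal axis, by class), as log2 of UMIs per 10,000 plus 1. Marker blocks differ between the classes, while Napsa, Nr4a1, Ighm and Tcf4 spread over several of them.

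DC1-like cells carried the receptors of this lineage. Xcr1, the receptor for the chemokine XCL1, had a UMI in 20 of 21 DC1-like cells and 192 UMIs in all, at 378 CPM in replicate 1 and 456 in replicate 2. Clec9a, a receptor for the exposed actin of dead cells, had 216 UMIs in 21 of 21 cells (433 and 507 CPM), and Irf8, the factor that sets up the lineage, 548 UMIs in 21 of 21 (1365 and 1079 CPM). DC2-like cells held 0 UMIs of Xcr1, 3 of Clec9a and 0 of Irf8. The adhesion molecule Cadm1 (532 UMIs), the amidase Naaa (468 UMIs) and Wdfy4, needed for cross-presentation (656 UMIs), were each found in all 21 DC1-like cells, but Naaa and Wdfy4 were also found in 29 and 28 of the 29 DC2-like cells.

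DC2-like cells carried the lectin genes Cd209a and Mgl2 and the gene Tnip3. Cd209a, a C-type lectin, had 956 UMIs in 28 of 29 DC2-like cells (2047 and 1321 CPM), and Mgl2, the lectin CD301b, 941 UMIs in 28 of 29 (1767 and 1478 CPM). Tnip3, an inhibitor of NF-kappaB signalling, had 1166 UMIs in 29 of 29 (2535 and 1584 CPM). DC1-like cells held 0 UMIs of Cd209a, 0 of Mgl2 and 8 of Tnip3. The medians and ranges over the DC2-like cells were 29 UMIs (0 to 117) for Cd209a and 31 (0 to 61) for Mgl2, so that single cells differed widely.

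Genes of the other lists that stood apart between the dendritic classes were picked after their values were seen. Zeb2, a transcription factor, had 674 UMIs in 29 of 29 DC2-like cells and 4 UMIs in 4 of 21 DC1-like cells, while Id2, an inhibitor of E proteins, had 57 UMIs in 19 of 29 and 373 UMIs in 21 of 21. Itgam, the integrin chain CD11b, had 93 UMIs in 25 of 29 DC2-like cells and 0 in DC1-like cells. Ccl9, a chemokine, had 291 UMIs in 24 DC2-like cells and 0 in DC1-like cells, and Cxcr3, a chemokine receptor, had 1 UMI in DC2-like cells and 47 in 18 of 21 DC1-like cells. The growth factor receptor Kit was also mainly in DC1-like cells, with 71 UMIs in 17 of 21 against 5 in 4 of 29. The cytokine gene Il1b had 1648 UMIs in 25 of 29 DC2-like cells (2332 and 3138 CPM) and 121 in 9 of 21 DC1-like cells (559 and 39.0 CPM), and Ccl4 1340 in 27 and 176 in 13. Ccr2, the receptor that draws monocytes and their relatives to CCL2, was found in both, with 189 UMIs in 27 of 29 and 215 in 21 of 21. Lyz2 was also in both, at 2 to 85 UMIs in DC2-like cells and 0 to 55 in DC1-like cells, so that a Lyz2 UMI did not mark the monocyte-like cells.

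MHC class II genes were high in the dendritic classes. The 10 genes of the list summed to a median of 604 UMIs per 10,000 in the DC2-like cells of replicate 1 (range 489 to 808) and 599 in those of replicate 2 (453 to 786). In DC1-like cells the median was 451 in replicate 1 (342 to 726) and 425 in replicate 2 (321 to 577). The DC2-like median was the higher in both replicates, and the ranges of single cells overlapped. The DC1-like and DC2-like cells held 97.4% of all MHC class II UMIs of the 86 cells. The median was 181 per 10,000 in B-cell-like cells (73.7 to 280), 153 in the plasmacytoid-DC-like cell, 22.2 in the migratory-DC-like cell, 1.77 in monocyte-like cells (up to 45.4), and 0 in neutrophil-like and mast-cell-like cells. The 4 cells of no class had a median of 58.2, and the highest of them reached 308.

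**Figure D3:**
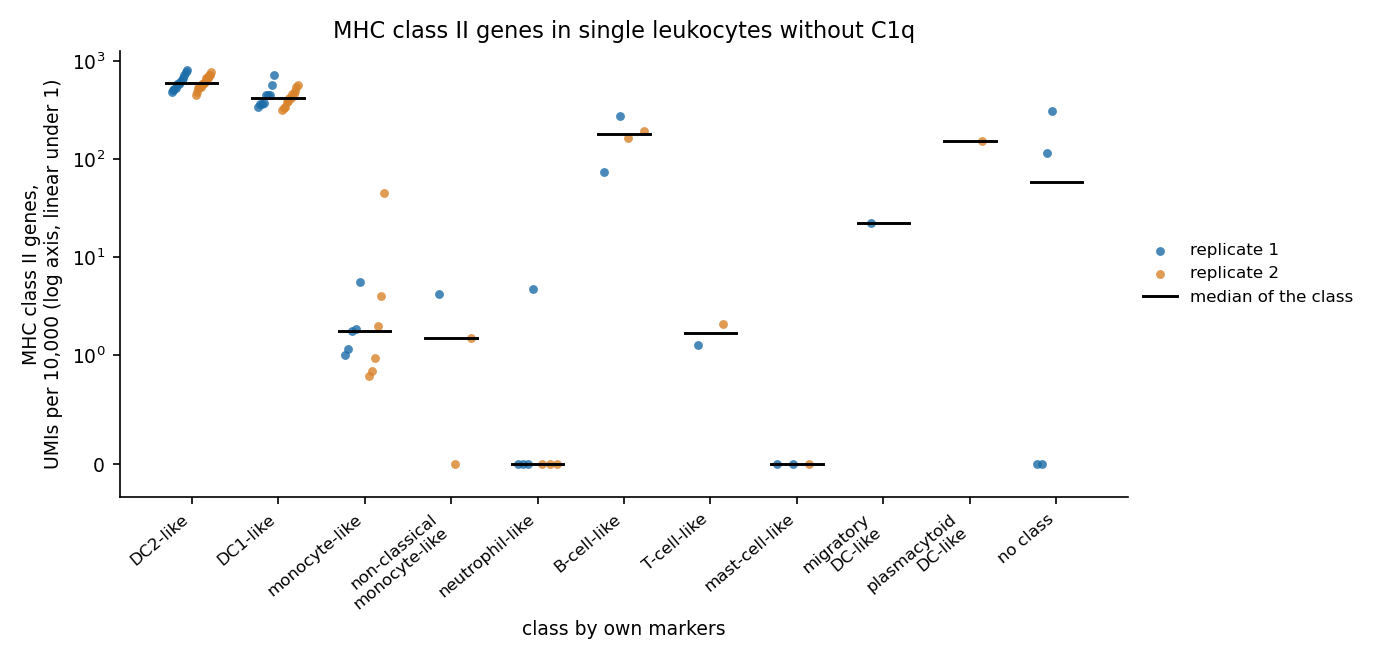
Summed UMIs per 10,000 of 10 MHC class II genes in each cell (vertical axis, logarithmic above 1 and linear below), by class (horizontal axis) and replicate (colour); bars are class medians. DC2-like cells (median 599) and DC1-like cells (median 427) lie above the monocyte-like cells (median 1.77).

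The genes of the classical MHC class II molecules were found in the same cells. Among the 53 cells with at least 20 UMIs of H2-Aa, the lowest count was 19 for H2-Ab1, 19 for H2-Eb1 and 97 for Cd74. Among the 25 cells with no H2-Aa UMI, the highest count was 9 for H2-Ab1, 2 for H2-Eb1 and 20 for Cd74. MHC class II promoters are known for an X2 box, bound by CREB-family factors, and a Y box, bound by the factor NF-Y, which together recruit the coactivator CIITA. The 100 bases before the annotated start are shown for 2 of these genes, 5′ to 3′ on the strand of the gene, from RefSeq (GRCm38.p6), with TGACGTCA, a full CRE site as used for the X2 box, and GATTGG or its complement CCAATC, the core of the Y box, in capitals. H2-Aa lies on the minus strand (chr17:34287824-34287923) and H2-Eb1 on the plus strand (chr17:34305767-34305866).
H2-Aa: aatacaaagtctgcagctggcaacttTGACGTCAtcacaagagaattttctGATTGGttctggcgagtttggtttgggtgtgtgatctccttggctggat
H2-Eb1: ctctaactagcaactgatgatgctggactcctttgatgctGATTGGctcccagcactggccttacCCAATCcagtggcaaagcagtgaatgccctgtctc
In H2-Aa, TGACGTCA begins 74 bases and GATTGG 49 bases before the start. In H2-Eb1, GATTGG begins 60 bases and CCAATC 35 bases before it, and TGACGTCA is not in this window. On either strand, GATTGG was found in 16.1% of 32851 promoters of 300 bases and TGACGTCA in 1.79%. These matches describe the sequence only.

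CIITA itself was low but present. Ciita, the coactivator that turns on the MHC class II genes, had 90 UMIs in 26 of 29 DC2-like cells (162 and 146 CPM) and 165 UMIs in 21 of 21 DC1-like cells (398 and 335 CPM). Its order between these classes was opposite to that of H2-Aa, which was at 9542 and 10346 CPM in DC2-like cells and 7541 and 6602 CPM in DC1-like cells. Neither difference was tested, since the classes were cut from the same cells.

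Monocyte-like cells held Lyz2 and monocyte genes with little MHC class II (a median of 3 UMIs over the 10 genes, 1 to 48). Lyz2 ranged from 9 to 427 UMIs in the 11 cells, with a median of 154, and Ly6c2, a surface marker of classical monocytes, from 2 to 99 UMIs. Plac8 ranged from 2 to 169 UMIs and F13a1, a clotting factor chain made by monocytes, from 1 to 80, so that both were present in each of the 11 cells. H2-Aa had 1 UMI in 1 of the 11. Granule genes of immature myeloid cells were found in part of them. Mpo, the myeloperoxidase, reached 10 UMIs in 3 cells, which held 13, 121 and 147 UMIs. Elane, neutrophil elastase, had 5, 104 and 297 UMIs in these cells, and the related protease Prtn3 had 12, 254 and 319. Prtn3 was not limited to them, as another monocyte-like cell with 1 UMI of Mpo held 31. The 3 cells came from both replicates, 2 from replicate 1 and 1 from replicate 2, and the remaining monocyte-like cells held 0 or 1 UMI of Mpo. The 3 non-classical-monocyte-like cells had 26, 70 and 225 UMIs of Lyz2 and 0 of Ly6c2, with 1 UMI each of Treml4. In these cells the classical monocyte list had a median of 25.3 UMIs per 10,000 (0 to 86.1). Their own list had a median of 55.1 (40.4 to 70.0). In at least 1 of the 3 cells the classical list was thus the higher, as 86.1 is above the top of their own list. The name of the 3 cells rested on 5 or 6 markers, Nr4a1, Gngt2, Adgre4 and Pou2f2 among them. Nr4a1 also stands in the list of dissociation stress genes. Cx3cr1 and Ace, known for these monocytes, were found in 1 of the 3.

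Neutrophil-like cells held nearly all S100a8. The 7 cells had 219, 1973, 2236 and 3237 UMIs of S100a8 in replicate 1 and 280, 781 and 1655 in replicate 2, or 99.5% of its UMIs. The partner subunit S100a9 ranged from 284 to 3060 UMIs. Of the other 79 cells, 6 held S100a8, with 1, 1, 2, 3, 14 and 29 UMIs. The neutrophil-like cells fell into 2 kinds on genes of the secondary granules, which neutrophils fill while still in the marrow. The antimicrobial peptide Camp reached 100 UMIs in 4 cells (207, 377 and 830 in replicate 1 and 359 in replicate 2), where Ngp had 386 to 725 UMIs and Ltf, lactoferrin, 96 to 217. In the other 3 cells Camp and Ltf were at 0 and Ngp at 0 or 1. The origin of either kind was not tested. Retnlg, a resistin-like gene of mature neutrophils, did not separate them, with 20, 97 and 149 UMIs in these 3 cells and 7, 60, 77 and 100 in the other 4. Lcn2, a protein that binds iron carriers of bacteria, was in all 7, at 3 to 263 UMIs. The glial genes were at 37.5 and 29.5 per 10,000 in 2 of the 7, and their part in these values was not tested.

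Lymphoid cells were few. The B-cell-like cells held 12 and 39 UMIs of Cd79a in replicate 1 and 49 and 11 in replicate 2. Igkc, the constant part of the kappa light chain, had 78, 264, 1051 and 248 UMIs in these cells, and Ighm, the heavy chain of IgM, 28, 99, 137 and 34. The B-lineage factors Pax5 (1 to 28 UMIs) and Ebf1 (3 to 107) were in all 4. Ighm was not limited to them, as 49 of the other 82 cells held a UMI of it, with at most 10 UMIs, and it was at 202 and 151 CPM in C1q-positive leukocytes and 8.02 and 9.22 CPM in empty droplets. The T-cell-like cells, 1 in each replicate, held 7 and 5 UMIs of Cd3e, 6 and 11 of Cd3g, and 14 and 10 of Trbc1, a constant part of the receptor beta chain. Icos, a costimulatory receptor, had 4 and 19 UMIs and Cxcr6, a chemokine receptor of tissue-dwelling T cells, 7 and 24. Cd4 had 2 UMIs in 1 of them, Cd8a and Cd8b1 had 0, and Foxp3, Gzma, Gzmb and Prf1 were at 0 in all 86 cells.

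Single cells of other kinds were also present. The mast-cell-like cells held 137 and 78 UMIs of the protease Mcpt4 in replicate 1 and 163 in replicate 2, with 56, 26 and 37 of Cpa3, 64, 47 and 75 of Cma1, and 6, 3 and 5 of Kit. Their libraries were small, at 3355, 2247 and 1776 UMIs. The plasmacytoid-DC-like cell, in replicate 2, held 26 UMIs of Siglech, 37 of Bst2, 35 of Tcf4, the factor of this lineage, and 31 of H2-Aa. The migratory-DC-like cell, in replicate 1, held 63 UMIs of Ccr7, the receptor that leads dendritic cells to lymph nodes, 23 of Fscn1, 237 of Ccl5 and 49 of Il12b, but 3 of H2-Aa. Each of these last classes was a single cell and has no replicate.

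Clusters of the 86 cells gave a coarser picture. A graph clustering made 6 clusters of 23, 17, 17, 14, 10 and 5 cells. Markers of DC1, classical monocytes, B cells and neutrophils led the clusters of 23, 17, 10 and 5 cells, or 26.6%, 19.9%, 11.5% and 5.88% of cells as means of the replicates. The monocyte cluster was led by the granule genes Prtn3 and Elane and also held Mpo among its 10 leading genes, beside F13a1, Plac8 and Ly6c2. The DC1 cluster held 19 DC1-like, 2 T-cell-like and 2 mast-cell-like cells. The cluster led by B-cell genes held the 4 B-cell-like cells and 6 dendritic-like cells, with a median of 34396 UMIs. One cluster of 17, led by Ccl5, Tnip3, Mt2 and Cd209a, held 16 DC2-like cells and the migratory-DC-like cell and had as many leading markers of one list as of the other. The cluster of 14 was led by Csmd1, Nkain2, Pcdh9 and Cdh19, genes of glia and neurons, and held 9 of the DC2-like cells. Both were left without a name. The clusters changed with their settings, as the one led by DC1 markers was at 0% at resolution 0.5 and with 10 components in place of resolution 1 and 20 components, while the classes by own markers do not use them.

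Cell cycle genes were found in several classes. Mki67, a protein of dividing cells, had at least 2 UMIs in 24 of the 86 cells, Top2a, the topoisomerase of mitosis, in 19, and both in 16. Of these 16, 8 were monocyte-like, 4 DC2-like, 2 DC1-like, 1 B-cell-like and 1 neutrophil-like. The 10 genes of the cell cycle list summed to a median of 29.3 per 10,000 in the 11 monocyte-like cells, and the neutrophil-like cell had 10 UMIs of Mki67 and 78 of the list. The highest rate of all, 97.4 per 10,000, was that of a cell with no class, from 14 UMIs of the list among 1438. By replicate, 8 of 41 cells (19.5%, exact 95% interval 8.82 to 34.9) and 8 of 45 (17.8%, 8.002 to 32.1) held both genes at 2 UMIs. Among C1q-positive leukocytes these were 2 of 185 (1.08%, 0.131 to 3.85) and 2 of 146 (1.37%, 0.166 to 4.86). These intervals cover the counting of cells in each library and are no test between the kinds of cell. Depth moved with this count. The 16 cells had a median of 27966 UMIs against 16522 in the other cells, and the 6 dendritic-like ones had 27562 to 38949. Their barcodes were not tested for pairs of leukocytes caught in 1 droplet. Thinned to 1000 UMIs a cell, Mki67 had a UMI in 14.6% and 8.89% of leukocytes without C1q and in 0.549% and 0% of C1q-positive leukocytes. As a summed level, which is per UMI, the values were 257 and 166 CPM for Mki67 and 1420 and 1148 CPM for the list, against 16.1 and 21.3 CPM and 227 and 266 CPM in C1q-positive leukocytes.

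**Figure D4:**
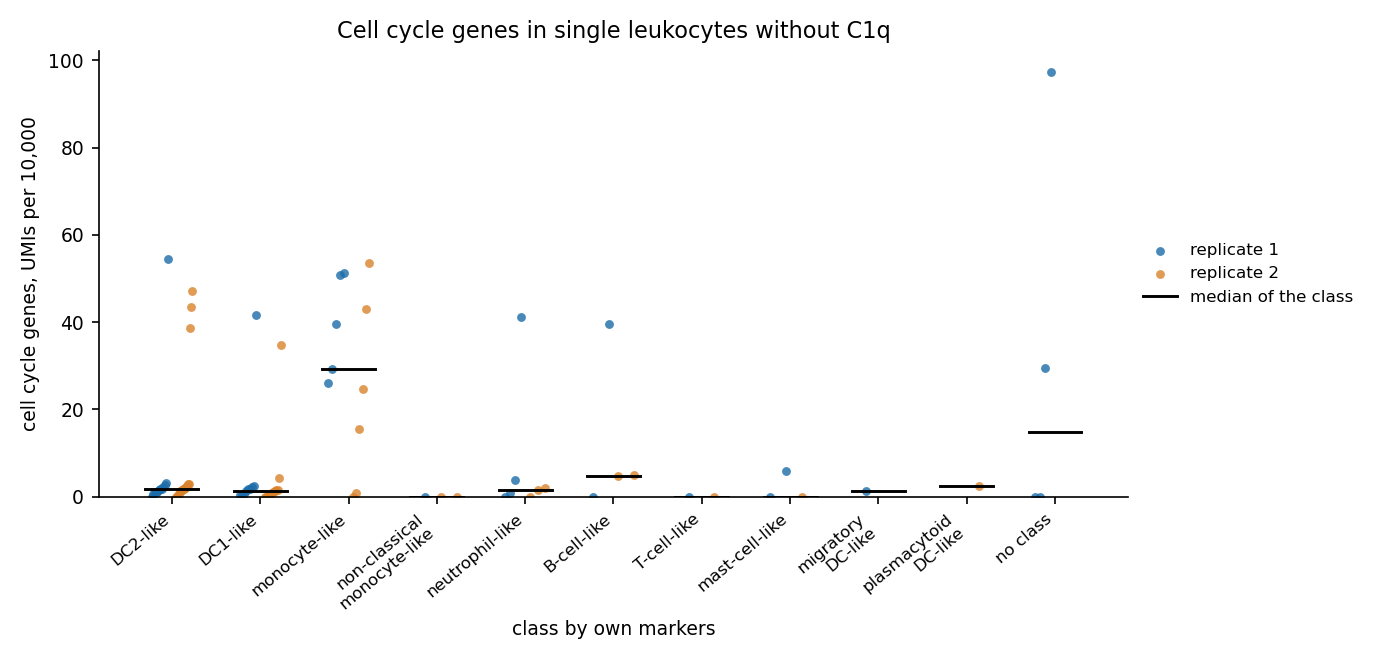
Summed UMIs per 10,000 of 10 cell cycle genes in each cell (vertical axis), by class (horizontal axis) and replicate (colour); bars are class medians. The median of the 11 monocyte-like cells is 29.3, and single cells of the dendritic, neutrophil-like and B-cell-like classes lie as high, with the highest cell, at 97.4, in no class.

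Gene lists were then set beside the C1q-positive leukocytes. This contrast is the one that chose the cells, and both kinds come from the same 2 libraries, so that it carries no test. A gene was counted as higher or lower when the summed CPM plus 50 differed by at least 2-fold the same way in both replicates. Of 9168 genes at 10 CPM or more in either kind, 2.31% were higher in leukocytes without C1q and 2.62% were lower, and the median ratio was 1.01. Of the antimicrobial and granule genes, 11 of 14 compared were higher and 1 was lower, which was Lyz2, at 2176 and 2734 CPM against 7976 and 7247. Of the neutrophil markers 10 of 16 were higher, of the DC1 markers 8 of 10, of the DC2 markers 7 of 14 with 1 lower, of the classical monocyte markers 5 of 10, and of the cell cycle list 4 of 10. Of the macrophage markers 0 of 16 were higher and 13 were lower, of the chemokines 1 was higher and 6 of 15 were lower, of the Fc receptors 3 of 5 were lower, of the toll-like receptors and inflammasome genes 3 of 11, and of the dissociation stress genes 3 of 12. Nothing is read from these counts about the lists, since the C1q limit fixed the contrast.

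On the high side, neutrophil genes led. S100a8 (11154 and 3311 CPM against 0.472 and 1.77) and S100a9 (10749 and 3383 against 0.945 and 2.37) led, followed by Ngp, Camp, Igkc, Lcn2, Plac8, Prtn3, Ly6c2 and Chil3. Cd209a was at 732 and 548 CPM against 19.4 and 45.5, and Xcr1 at 109 and 141 CPM against 0 and 0.591. Tmsb10, an actin-binding peptide, was at 3027 and 3058 CPM against 266 and 423, and Napsa, an aspartic protease of lysosomes, at 414 and 440 against 8.97 and 37.8.

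On the low side stood genes of tissue macrophages. Behind the C1q genes themselves came Pf4, Apoe, Cxcl2, Ms4a7, Selenop and Cx3cr1. Apoe, which carries lipids, was at 1108 and 1259 CPM against 27021 and 24040. It was at 41268 and 40449 CPM in empty droplets, and the part of empty-droplet RNA estimated from the glial genes would alone give 1624 and 2137 CPM. Csf1r, the receptor that keeps macrophages alive, was at 58.1 and 63.9 CPM against 735 and 814, Mrc1, the mannose receptor, at 78.4 and 79.5 against 1060 and 1181, and Adgre1, which codes for F4/80, at 45.0 and 67.5 against 1004 and 655. Ms4a7 was at 1.45 and 1.20 CPM against 623 and 545.

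**Figure D5:**
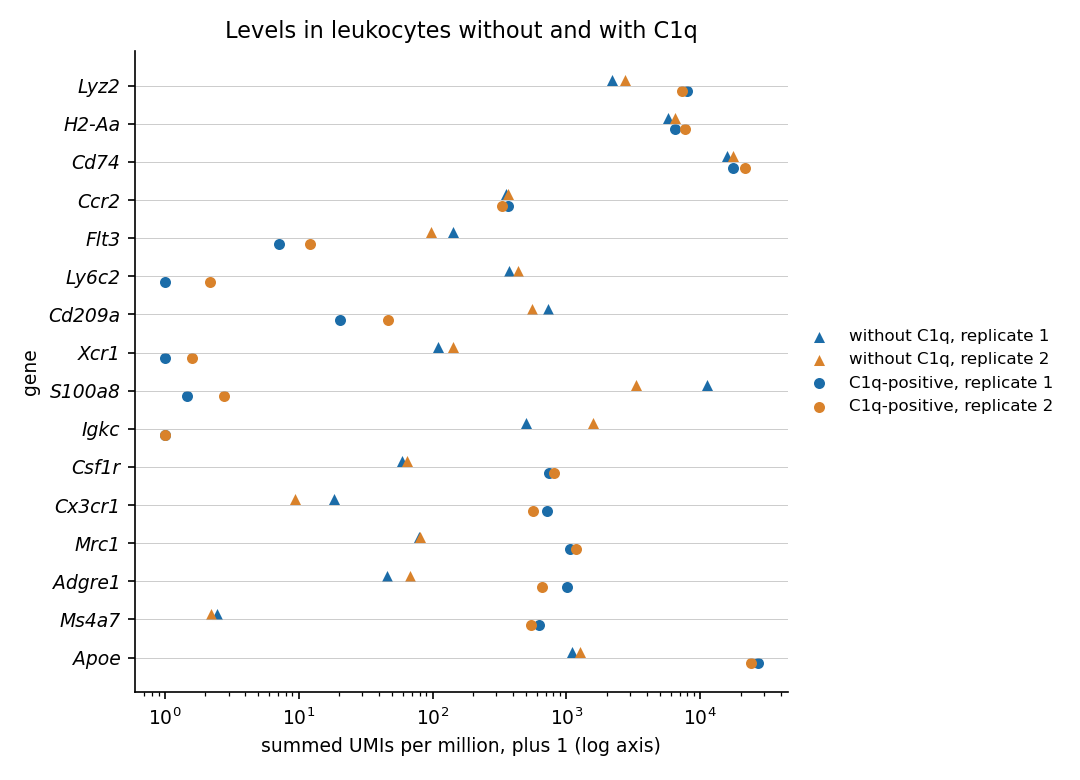
Summed level of 16 genes (CPM plus 1, log axis) in leukocytes without C1q (triangles) and C1q-positive leukocytes (circles) of replicate 1 (blue) and replicate 2 (orange). H2-Aa, Cd74 and Ccr2 lie close together, while S100a8, Igkc and Xcr1 lie to the right for leukocytes without C1q and Lyz2, Apoe, Ms4a7 and Mrc1 to the left.

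Other immune lists differed in how many genes passed 2-fold. MHC class II summed to 35751 and 39384 CPM in leukocytes without C1q and 39688 and 48065 CPM in C1q-positive leukocytes. Within it H2-Oa, H2-Ob and H2-DMb2, which tune peptide loading, were the 3 of 10 genes counted as higher, H2-Oa at 90.01 and 103.6 CPM against 5.195 and 9.46. Of the 9 genes of MHC class I and loading, 0 passed 2-fold, and of 7 cytokine genes compared, 0 did. Ccr2 was at 350 and 365 CPM against 368 and 328. Of 11 integrins and adhesion genes 3 were higher, beside the 2.31% of all genes compared.

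Genes of endothelin signalling, the subject of the study, were also looked up. Ece1, the enzyme that activates endothelin, was at 100.17 and 99.997 CPM in leukocytes without C1q and 13.7 and 21.3 CPM in C1q-positive leukocytes, beside 88.9 and 77.4 CPM in empty droplets. The receptor gene Ednrb was at 46.5 and 71.1 CPM against 587 and 544 CPM in empty droplets. Ednra was at 1.45 and 0 CPM, Edn1 at 4.36 and 1.20, and Edn3 and Ece2 had 0 UMIs.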

How the data were processed

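The 2 libraries of dissociated L4 and L5 DRG, replicates 1 and 2 of 1 group, were analysed. The authors prepared them with a 10x 3′ kit and deposited UMI counts per gene and barcode, made with Cell Ranger 7.1.0 on mm10 per the labels and file headers, with all barcodes and 32285 genes. The annotation and the handling of intronic reads are not given in the sources used here. The counts are not normalized, and total depth per library is stated in the results. No column was left unmapped.

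Cells were chosen by fixed limits on their own counts. The members and gene lists were chosen with earlier results of these data known. Because there is 1 group of 2 samples and the cells were chosen on the genes themselves, no test was run, and p-values are not given. Values are per replicate or mean ± SD (n = 2), with exact Clopper-Pearson 95% intervals for shares. CPM are summed UMIs of the cells per 1000000. Glia chosen by Fabp7 and barcodes ranked 45000 to 90000 by UMIs gave the background. Doublets were treated only through the limits on genes of other cell types, and no doublet caller was run on so few cells.

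Named genes are those of the lists (390 genes, of which Mx1 and Trgc1 had no entry of that name) and the 5 genes named with the choice of cells. Genes were also named from the 20 with the largest ratio in each direction against C1q-positive leukocytes, and from the 10 leading genes of a cluster. Clusters were made with scanpy 1.11.5 (Leiden, resolution 1, 1000 variable genes, 20 components, 15 neighbours). A cluster was named by the marker list with most genes among its 50 leading genes, at least 3 and no tie, if at least 1 stood in the first 10 and no list had more there. The clause on the first 10 was added after the clusters were seen, as the cluster led by glial genes was otherwise named for mast cells. Also set after seeing the data were the classes by own markers (2 UMIs, 3 markers), the 12 glial genes and their limit of 10 per 10,000, the limits of 20 UMIs for H2-Aa, 100 for Camp and 10 for Mpo, the minimum of 10 CPM for a ratio and the genes drawn in the plots. The steps were tested on simulated data with known answers. Gene positions are from GENCODE M21 (GRCm38), which matched 32158 of 32285 identifiers, and promoters are from RefSeq (GRCm38.p6), where H2-Ab1 was not used. Numpy 2.4.6, scipy 1.17.1, pandas 2.3.3 and matplotlib 3.10.9 were used in Python 3.11.15. The alternatives changed the limits on cells, the cluster settings, the marker minimum, thinning, the weighting of cells and subtraction of empty-droplet RNA.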

Additional observations from a re-analysis of the deposited data

How the results depend on the processing

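Apart from leaving out a replicate, 156 alternative values were computed for 40 results, which are counts, shares and levels without a sign. Of these, 116 moved by less than the SD of the replicates or, for the number of cells, by less than 1.5 times. Part of the 116 could not move. A limit of at least 1000 UMIs per cell removed no cell, as the lowest held 1438, so that its values repeat the main ones. The number of cells was 80 to 86. Under the stricter leukocyte limit (6 UMIs and 20 per 10,000), Cd3e was in 2.54% of cells and Cd79a in 2.22%, with 0% in replicate 1. Among cells under 10 glial UMIs per 10,000, Cd3e was in 2.57%, Cd79a in 3.92% and monocyte-like cells were 14.1%. Thinned to 1000 UMIs, Cd79a was in 3.55% and Lyz2 in 63.1%. With 1 UMI enough for a marker, monocyte-like cells were 14.0%, and 3 cells changed class. Cluster shares also moved. At resolution 0.5 the clusters led by B-cell, neutrophil and DC1 markers were at 0% and that of classical monocytes at 32.6%, and at resolution 2 B cells were at 4.66% and classical monocytes at 12.98%. With 2000 variable genes B cells were at 5.77% and neutrophils at 29.0%, and with 10 components B cells were at 5.77%, neutrophils at 29.2%, and classical monocytes and DC1 at 0%. The cause was not tested. As a mean over cells, levels were 16.7 CPM for Cd3e, 79.7 for Cd79a, 3127 for Lyz2, 5177 for H2-Aa and 33165 for MHC class II, and Mcpt4, in small libraries, was at 1941 in place of 254. With empty-droplet RNA subtracted, Cd79a was at 76.3 CPM and Apoe at 0, as the estimated part exceeds its level. Of 60 values for 20 single genes, 14 moved, 6 of them upward, and those at the limit of 1000 UMIs could not move. No cell lay above the median plus 5 MAD of UMIs, so that this setting also repeats the main values. No paired analysis was possible because there is 1 group.

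Leaving out a replicate gives the other replicate's value and says nothing on stability. The shares of Cd3e (2.22% to 2.44%), S100a8 (11.1% to 19.5%) and H2-Aa (63.4% to 77.8%) have these ranges, and the level of S100a8 was 3311 to 11154 CPM. With 41 and 45 cells, a class of 1 to 4 cells cannot be compared between replicates.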

Other observations

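Macrophage genes were not absent from every class without C1q. The median number of macrophage-list markers at 2 or more UMIs, of 18, was 3 in DC2-like, 3 in monocyte-like and 2 in DC1-like cells. The 18 include the 3 C1q genes, which the choice kept from counting. It was 0 in B-cell-like, neutrophil-like and mast-cell-like cells and in the migratory-DC-like cell. DC1-like cells held a median of 5 of the 14 DC2 markers beside 9 of their own 10.

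Several genes of the lists had 0 UMIs in all 86 cells. Among these were the NK-cell receptors Ncr1 and Klra8, the eosinophil genes Epx, Prg2 and Ccr3, the basophil protease Mcpt8, the plasma cell receptor Tnfrsf17, the gamma delta T-cell genes Trdc and Tcrg-C1, the lymphoid factor Eomes, the cytokine Il17a and the receptor Tlr9. At this depth a gene at 0 could reach 4.36 CPM in replicate 1 and 3.61 in replicate 2.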
